A study of Homo sapiens with 48 samples.

Results

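Growth of A431 squamous carcinoma cells in culture for 3 weeks was screened with a pooled library of CRISPR guide RNAs, and the loss or gain of each gene's guides against the initial cells is described here for all 327 genes of the deposited table. The members are the 2 value columns of that table, which stand for the 2 cultured samples, with every gene row and without the row of the non-targeting guides. With their 2 initial samples they make up 4 of the 48 samples of the series. A-431, called A431, is a human epidermoid (skin squamous) carcinoma line.

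The library was designed against 334 genes, with 136 non-targeting guides as controls, and was also used in CAL27, a tongue squamous carcinoma line, and in SCC-13 cells, in culture or as tumors in mice. The A431 cells carried a stably expressed Cas9 nuclease, introduced as pLEX_Cas9 lentivirus and selected with blasticidin, and the labels do not say that the line was derived from 1 clone. Both the initial cells (A431_vitro_T0, 2 samples) and the cultured cells (A431_vitro_T1, 2 samples) carried Cas9 and the guide lentivirus, had been infected at low multiplicity and had been selected with puromycin. The initial cells were frozen after that selection and the cultured cells grew on for 3 weeks, so guides lost before the freezing are not seen. For comparison, the CAL27 cultures (CAL27_vitro_T1, 2 samples against 2 initial samples, 3 weeks) and the A431 tumors (A431_vivo_T1, 8 samples against 2 initial samples, about 2 months after injection into the rear flanks of SHO mice) were made from Cas9 cells and guide virus in the same way. The labels do not say whether cultures were started from separate infections, so the p-values rest on a spread between samples that may be technical only. The tables hold no expression values, so the identity of the cells was not checked against markers.

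In a pooled knockout screen most infected cells carry a single guide, Cas9 cuts the gene that the guide matches, and the guides are counted from genomic DNA before and after growth. Guides against genes that the cells need for proliferation or survival become rarer, and guides against genes that restrain growth become more common. Proliferating cells of any origin depend on nucleotide synthesis, DNA replication, mitosis, translation and the core cytoskeleton, whereas dependence on growth factor receptors, lineage transcription factors and chromatin regulators varies between cell lines. A431 cells are known for an amplified EGFR gene and for very high levels of the receptor.

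Each deposited value is a log fold change of a gene. No label or file header names the base of the logarithm. Changes are therefore given in log units, never as folds. The table does not state its sign convention, and a value below 0 is taken to mean that guides became rarer in culture. The row of non-targeting guides was 0 in both columns. Relative to it, 283 genes lay below 0 in both columns, 12 lay above 0 in both and 32 lay on different sides, and the median gene stood at -0.37 in value column 1 and -0.36 in value column 2. Unless stated otherwise, values below are distances from that median gene, so a gene at 0.37 in column 1 is level with the non-targeting guides.

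The columns resembled each other most at the low end. Of the 30 lowest genes of column 1, 20 were among the 30 lowest of column 2, whereas for the 30 highest the number was 12. The columns differed by a median of 0.18 log units per gene (quartiles 0.089 and 0.34). In 35 genes they differed by over 0.5 and in 6 by over 1. The largest difference, 1.29, belonged to UBE2C, a ubiquitin-conjugating enzyme of the anaphase-promoting complex, which stood at -0.23 in column 1 and -1.52 in column 2. Profilin PFN1 (-1.90 and -0.64), DUT (-2.74 and -1.52), the podosome scaffold SH3PXD2A (-0.99 and 0.22), the condensin subunit SMC4 (-1.57 and -0.45) and the repair gene BRCA1 (-1.57 and -0.51) made up the rest, and apart from UBE2C all of these were lower in column 1. SH3PXD2A was the only one of the 6 on different sides of the median gene. Of all genes, 117 were below the median gene in both columns, 117 were above it in both and 93 changed side. In column 1, 9 genes shared 1 exact deposited value of -0.33, in column 2, 9 genes shared 1 value of -0.33, and of the 15 genes concerned none passed the test below.

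**Figure D1:**
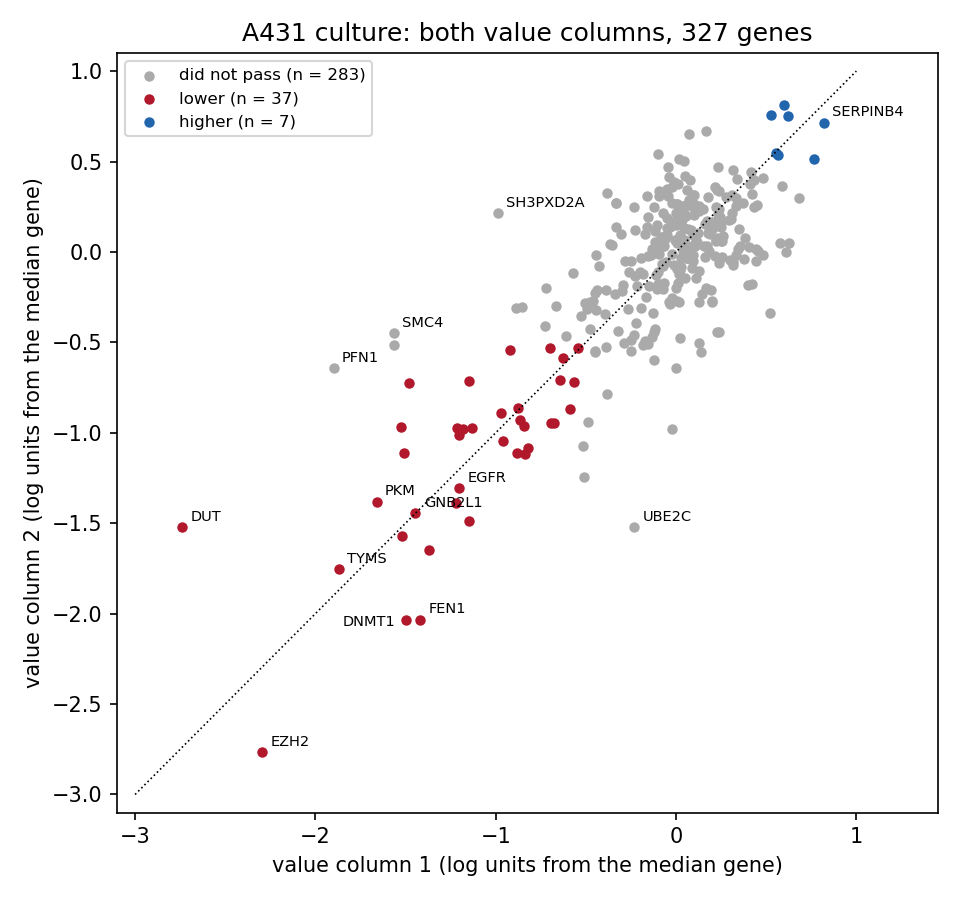
Change of each of 327 genes in value column 1 (x axis) and value column 2 (y axis), in log units from the median gene, with the line of equal values. Points are coloured by the limma call (37 lower, 7 higher, 283 not past the threshold), and EZH2 lies alone at -2.30 and -2.76 while UBE2C, PFN1, SMC4 and SH3PXD2A lie far from the line.

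Knockouts of 37 genes became rarer and knockouts of 7 became more common than those of the median gene. These are 11.3% and 2.14% of the 327 genes (limma's moderated test of the mean against 0, adjusted p below 0.05 by the Benjamini-Hochberg method). The changes were uneven in size. The means ran from -2.53 for EZH2 to 0.77 for SERPINB4, with quartiles at -0.28 and 0.16. A mean below -1 was seen in 23 genes and a mean above 1 in none. The mildest gene called lower was E2F4 at -0.54, and the mildest called higher were KRT5 and SLC25A6 at 0.55. With the values as deposited, where the non-targeting guides are 0, 136 genes (41.6%) passed below and 1 (0.306%), SERPINB4, passed above, and all 37 genes were among the 136. With 2 columns an exact sign-flip permutation test cannot go below p = 0.5, so these calls rest on the spread that limma pools over genes. None of these genes passed an adjusted p of 0.01, where the smallest was 0.0101. With 1 A431 column left out, only part of the 37 lower genes kept their call, and other genes were newly called. Of the 7 higher genes some or none kept it, depending on the column. In these fits the lone column was given the spread of the CAL27 cultures, so a lost call need not mean that the A431 columns differed. Of the called genes that the naming rule took, 9 lost their call whichever column was left out: PKM, EGFR, CDC20, MYC, TFDP1, SERPINB4, DEGS1, KRT5 and SLC25A6.

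**Figure D2:**
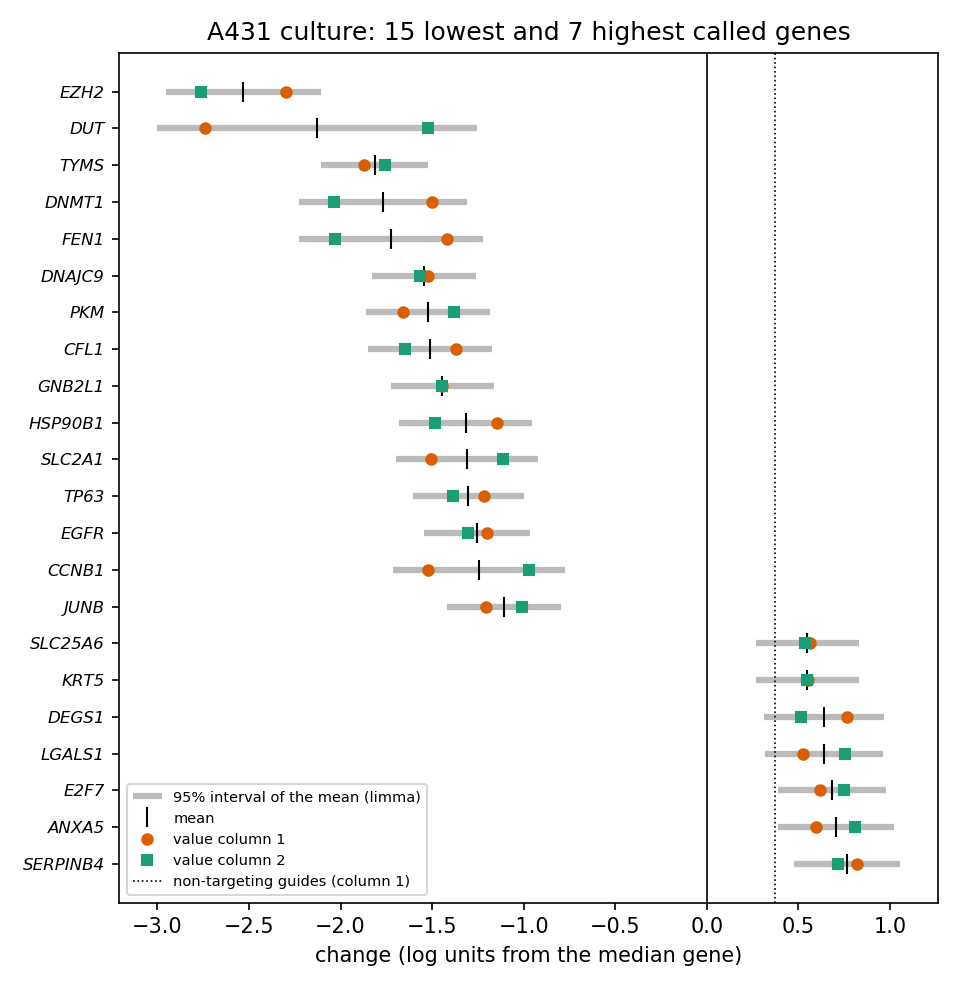
Change in log units from the median gene for the 15 lowest genes called lower and the 7 called higher in A431 culture. Circles and squares are value columns 1 and 2, ticks their mean, grey bars the 95% confidence interval of the mean from limma, and the dotted line the level of the non-targeting guides in column 1. Both columns of these 15 lower genes lie at or below -0.97, and SERPINB4 and ANXA5 have the highest means.

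Promoter sequences are shown first, as a description only. The E2F partner TFDP1 and the E2F factor E2F4 were among the lower genes, and E2F factors are known to act on promoters of genes for DNA synthesis. The screen counts guides and does not measure promoter activity, so a link between a motif and the loss of guides was not tested. The 70 bases from 50 before to 20 after the transcription start of 8 lower genes are printed 5′ to 3′ on the gene's strand, from RefSeq on GRCh38.p14. These 8 were chosen because they hold a match within that stretch. Capitals mark the matches to an E2F-type motif, given as the words TTTCCCGC, TTTCGCGC, TTTGCCGC and TTTGGCGC and their reverse complements.
EZH2, chr7:148884272-148884341, minus strand: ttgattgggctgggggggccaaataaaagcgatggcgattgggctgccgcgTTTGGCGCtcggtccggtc
DUT, chr15:48332147-48332216, plus strand: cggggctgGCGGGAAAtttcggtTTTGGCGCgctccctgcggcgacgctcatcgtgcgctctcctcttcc
TYMS, chr18:657603-657672, plus strand: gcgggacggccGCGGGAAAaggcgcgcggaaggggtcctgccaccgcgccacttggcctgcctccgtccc
DNMT1, chr19:10194934-10195003, minus strand: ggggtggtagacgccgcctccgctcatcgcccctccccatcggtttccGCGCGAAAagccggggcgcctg
DNAJC9, chr10:73247236-73247305, minus strand: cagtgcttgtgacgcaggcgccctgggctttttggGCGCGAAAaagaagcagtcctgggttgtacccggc
MCM3, chr6:52284723-52284792, minus strand: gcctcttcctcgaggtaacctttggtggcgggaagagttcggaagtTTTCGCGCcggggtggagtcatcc
MCM7, chr7:100101378-100101447, minus strand: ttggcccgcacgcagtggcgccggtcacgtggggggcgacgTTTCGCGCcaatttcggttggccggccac
GINS2, chr16:85688935-85689004, minus strand: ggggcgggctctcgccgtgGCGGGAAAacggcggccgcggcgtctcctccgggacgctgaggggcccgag

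A window of 250 bases before to 50 after a start was found for 256 of the 327 genes by symbol. At least 1 motif lay in a window of 25 of them (9.77%). Among all 27305 RefSeq genes with a window it was 3.99%. Of the lower genes, 9 of the 32 with a window held it (28.1%): the 8 above and TFDP1. Among genes not called it was 16 of 218 (7.34%), and among the 6 higher genes with a window it was 0. DUT held 2 motifs within the printed stretch. By their means, 15 of the 25 genes with a motif lay below the median gene. Their means ran from -2.53 to 0.49 with a median of -0.05, against a median of 0.01 for the 231 genes without it, and PCNA, E2F1, E2F2, CDK1, CLSPN and HELLS, which are cell cycle or replication genes with the motif, did not pass. A match of letters is not evidence of binding, and the library was picked by its makers, so these shares describe this library only.

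The enzymes that supply thymidylate and other deoxynucleotides were among the lowest genes. Of the 4 measured, 3 were lower and none higher, and the list's median was -1.24, against 0.01 over all 327 genes. The counts of this and later lists stand beside 11.3% lower and 2.14% higher over all genes. DUT, which removes dUTP before it can enter DNA and gives the substrate for thymidylate synthesis, stood at -2.74 in column 1 and -1.52 in column 2, a mean of -2.13 ± 0.86 (SD, n = 2, limma adjusted p = 0.0275). Both columns lay far below the median gene, and their difference was among the largest of the table. Thymidylate synthase TYMS stood at -1.87 and -1.76, a mean of -1.81 ± 0.08 (adjusted p = 0.0101). RRM2, the small subunit of ribonucleotide reductase, stood at -0.64 and -0.71 (adjusted p = 0.0284). The salvage enzyme thymidine kinase TK1 stood at 0.00 and -0.64 and did not pass (adjusted p = 0.36).

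Genes of the replication fork followed. Of 9 measured, 4 were lower and none higher, with a median of -0.93. FEN1, the endonuclease that trims the flaps of Okazaki fragments, stood at -1.42 and -2.03, a mean of -1.73 ± 0.43 (adjusted p = 0.0129). The helicase subunits MCM3 (-1.22 and -0.97) and MCM7 (-0.84 and -1.12) and the GINS subunit GINS2 (-1.15 and -0.71) were lower too. Values differed between members of the same machinery. The helicase subunit MCM5 stood at -0.50 and -0.32 (adjusted p = 0.107), the sliding clamp PCNA at 0.25 and -0.03, its binding partner KIAA0101 at -0.11 and 0.12, and the checkpoint mediator CLSPN at -0.06 and 0.07. None of these passed, nor did BRCA1 with its unequal columns (adjusted p = 0.103). How well the guides of each gene cut is not given. Here and in later lists, a gene near the median gene is therefore not shown to be dispensable. POLR2A, which every cell requires, had a mean of 0.16.

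EZH2, which methylates histone H3 within a Polycomb complex, had the lowest mean of all genes, -2.30 and -2.76 in the columns and -2.53 ± 0.33 in the mean (adjusted p = 0.0101). It was the lowest gene of column 2, and only DUT was lower in column 1. DNMT1, which copies DNA methylation onto new strands, stood at -1.50 and -2.04 (mean -1.77 ± 0.38, adjusted p = 0.0129). The remaining chromatin enzymes did not pass: the remodelling ATPase SMARCA4 at -0.44 and -0.02, the deacetylase HDAC1 at -0.16 and 0.31, and the helicase-like HELLS at -0.11 and 0.15. So 2 of 5 were lower, both of them methyltransferases, and the list's median was -0.23. Among 7 histones, histone chaperones and architectural proteins, DNAJC9, a co-chaperone that binds histone H3-H4, was the only one called, at -1.52 and -1.57 (mean -1.55 ± 0.03, adjusted p = 0.0101). The histone chaperone NASP (-0.30 and -0.22), the histone variant H2AFZ (-0.89 and -0.31), HMGN2 (-0.67 and -0.30) and HMGB1 (-0.57 and -0.12) lay below the median gene in both columns without passing, and HMGB2 lay at 0.08 and 0.12.

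The E2F factors lay on both sides. E2F7, an atypical E2F that represses transcription, was higher, at 0.62 and 0.75 (mean 0.69 ± 0.09, adjusted p = 0.0295). E2F4, a DNA-binding E2F that acts mostly in repressor complexes, was lower at -0.54 and -0.53 (adjusted p = 0.0448), and TFDP1, a dimer partner of most E2F factors, was lower at -0.59 and -0.87 (adjusted p = 0.0348). The activators E2F1 (0.41 and 0.03) and E2F2 (0.33 and 0.25) and the second atypical factor E2F8 (0.31 and -0.06) did not pass. In the list of the G1 and E2F axis, which does not hold E2F4 and TFDP1, E2F7 was the only one of 8 called, and the median was 0.17. The kinase inhibitor CDKN2B stood at -0.00 and 0.15, cyclin CCND2 at 0.31 and 0.31 and MYBL2 at -0.15 and -0.19.

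Some mitotic genes were lower. Of 11 genes of mitotic entry and the anaphase-promoting complex 3 were lower and none higher (median -0.44), against 11.3% lower over all genes. Cyclin B1, CCNB1, stood at -1.52 and -0.97 (mean -1.25 ± 0.39, adjusted p = 0.0215), while cyclin B2, CCNB2, stood at 0.24 and -0.06 (adjusted p = 0.675). The coactivator CDC20 (-0.97 and -0.89, adjusted p = 0.0139) and the chain-elongating enzyme UBE2S (-0.84 and -0.96, adjusted p = 0.0139) of the anaphase-promoting complex were lower in both columns, and its initiating enzyme UBE2C was low in column 2 only (adjusted p = 0.184). CDK1 stood at -0.10 and -0.11, and the polo-like kinase PLK1 at -0.02 and -0.98. Neither passed. Of 10 spindle and chromosome structure genes 1 was called, near the 11.3% called lower over all genes. It was the spindle assembly factor TPX2, at -0.67 and -0.94 (limma adjusted p = 0.0275). SMC4 had the lowest mean of the 10, -1.01, and did not pass (adjusted p = 0.114), and the median was -0.02.

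**Figure D3:**
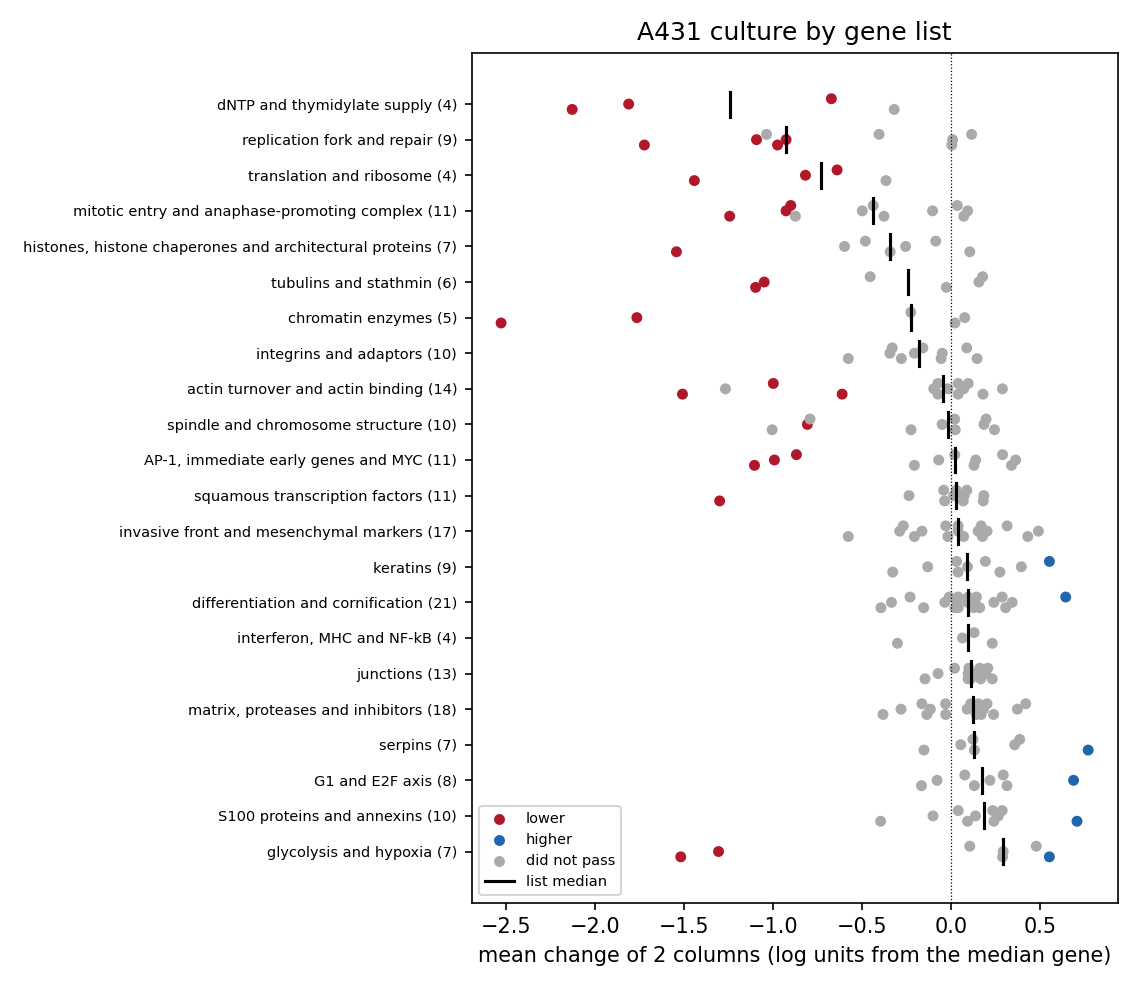
Mean change over the 2 value columns, in log units from the median gene, of the members of the 22 gene lists with at least 4 measured genes (number measured in brackets). Each point is a gene, red if called lower, blue if called higher and grey otherwise, and black ticks are list medians. The lowest medians are those of nucleotide supply (-1.24), the replication fork (-0.93) and translation (-0.73), and the highest that of glycolysis and hypoxia (0.29), whose lowest members are PKM and SLC2A1.

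Tubulin and actin genes were lower in part. Of 6 tubulins and stathmin, the alpha-tubulins TUBA1B (-1.48 and -0.72, mean -1.10 ± 0.53, adjusted p = 0.0461) and TUBA1C (-1.13 and -0.97, adjusted p = 0.0129) were lower, and the beta-tubulins were not: TUBB stood at -0.38 and 0.33, TUBB2A at 0.25 and 0.06 and TUBB4B at -0.39 and -0.53 (adjusted p = 0.0775). Of 14 actin genes, 3 were lower, against 11.3% of all genes. Cofilin CFL1, which severs actin filaments, stood at -1.37 and -1.65 (mean -1.51 ± 0.20, adjusted p = 0.0104), beta-actin ACTB at -0.96 and -1.04 (adjusted p = 0.0129) and the Arp2/3 subunit ARPC2 at -0.70 and -0.53 (adjusted p = 0.0417). The Arp2/3 subunit ARPC1B stood at 0.22 and 0.36, and profilin had a mean of -1.27 with an adjusted p of 0.0922. The list's median was -0.05.

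Genes of near-identical sequence cannot always be cut apart from each other, so the coding sequences were searched for shared candidate sites. These are runs of 20 bases followed by the NGG motif that Cas9 requires, within 1 coding exon of the reference transcripts (GENCODE v44lift37, GRCh37). They are not the study's guides, whose sequences were not used here. TUBA1B had 214 such sites, of which 150 (70.1%) also lay in TUBA1C, and SERPINB4 had 91, of which 49 (53.8%) also lay in SERPINB3. LGALS7 and LGALS7B, the duplicated galectin-7 genes, shared 74 sites (94.9% and 92.5%). The first shared site of each pair is printed 5′ to 3′ with its NGG in capitals.
TUBA1B and TUBA1C, chromosome 12, coding bases 7 to 29: gagtgcatctccatccacgtTGG
SERPINB4 and SERPINB3, chromosome 18, coding bases 94 to 116: atcagcatcacatcagcattAGG
LGALS7 and LGALS7B, chromosome 19, coding bases 15 to 37: ccacaagtcctcactgcccgAGG
Of the lower genes, RPSA shared 90.6% of its sites with another gene, TUBA1B 84.6%, TUBA1C 80.6%, IFITM3 45.2% and ACTB 28.6%. EZH2, DUT, TYMS, DNMT1, FEN1, DNAJC9, PKM, CFL1, GNB2L1 and HSP90B1 shared 0. Whether a guide of the library hit both copies of a pair was not tested.

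Genes of translation and protein folding were lower in part. Of 4 translation genes 3 were lower (median -0.73). GNB2L1, which encodes RACK1, a scaffold on the small ribosomal subunit, stood at -1.44 in both columns (adjusted p = 0.0101), with the ribosomal protein RPS19 at -0.56 and -0.72 (adjusted p = 0.0348) and the RNA-binding protein YBX1 at -0.69 and -0.95 (adjusted p = 0.0264). The poly(A)-binding protein PABPC1 stood at -0.25 and -0.49 and did not pass (adjusted p = 0.137). The ribosomal protein RPSA, which is in no list, was lower at -1.18 and -0.98. Of the 2 chaperones of the endoplasmic reticulum, HSP90B1, the HSP90 family member of that compartment, was lower at -1.15 and -1.49 (adjusted p = 0.0129), and HSPA5 stood at -0.12 and -0.60 (adjusted p = 0.238).

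Sugar uptake and the last step of glycolysis stood out within a list that otherwise lay above the median gene. Pyruvate kinase PKM stood at -1.66 and -1.38 (mean -1.52 ± 0.20, limma adjusted p = 0.0104). Its call was lost with either column left out, in fits that took the spread from the CAL27 cultures. The glucose transporter SLC2A1 stood at -1.51 and -1.11 (mean -1.31 ± 0.28, limma adjusted p = 0.0129). The mitochondrial ADP/ATP carrier SLC25A6 was higher at 0.56 and 0.54 (adjusted p = 0.043). The 4 others, all genes induced by hypoxia or stress, lay above the median gene in both columns without passing: DDIT4, an inhibitor of mTORC1, at 0.59 and 0.37 (adjusted p = 0.0806), NDRG1 at 0.28 and 0.30, BHLHE40 at 0.24 and 0.33 and ADM at 0.17 and 0.03.

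Among growth signalling genes, EGFR, the epidermal growth factor receptor, was lower at -1.20 and -1.30 (mean -1.25 ± 0.07, adjusted p = 0.0104). The call was lost with either column left out (adjusted p = 0.0836 and 0.0906). No copy numbers are given for these cells, whose EGFR gene is known to be amplified. Whether the loss of EGFR guides reflects a need for the receptor was not tested. Of 11 AP-1, immediate early and MYC genes 3 were lower, against 11.3% of all genes. JUNB (-1.20 and -1.01, adjusted p = 0.0129) and FOSL1 (-0.88 and -1.11, adjusted p = 0.0139) were the AP-1 subunits called, whereas JUN (0.08 and -0.04), JUND (-0.08 and -0.06) and FOS (0.14 and -0.56) were not. MYC was lower at -0.88 and -0.86 (adjusted p = 0.0139). ATF3 had the highest mean of that list, 0.36, from columns of 0.07 and 0.65 (adjusted p = 0.291).

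TP63, the transcription factor that maintains squamous epithelial identity, was the only one of 11 squamous transcription factors called, at -1.22 and -1.39 (mean -1.30 ± 0.12, adjusted p = 0.0104). A count of 1 in 11 is near the 11.3% called lower over all genes. The other squamous factors lay between -0.24 for REST and 0.18 for SOX4 and ETS2. NOTCH3, a receptor of the pathway that promotes squamous differentiation, stood at 0.12 and 0.05.

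The 7 higher genes each came from a different list. SERPINB4, an intracellular serine protease inhibitor of squamous epithelium, stood at 0.82 and 0.72 (mean 0.77 ± 0.07, adjusted p = 0.0215), and 0.40 above the non-targeting guides. Its neighbour SERPINB3, with 95.2% identical coding bases, stood at 0.32 and 0.45 and did not pass (adjusted p = 0.107). The phosphatidylserine-binding annexin ANXA5 stood at 0.60 and 0.81 (adjusted p = 0.0324), galectin LGALS1 at 0.53 and 0.76 (adjusted p = 0.0428), the ceramide desaturase DEGS1 at 0.77 and 0.52 (adjusted p = 0.043) and the basal keratin KRT5 at 0.55 and 0.55 (adjusted p = 0.043). E2F7 and SLC25A6 were the other two. Apart from SERPINB4 none of the 7 passed with the values as deposited, and centring each column on the mean of its middle genes kept E2F7 and SERPINB4 only.

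Most genes of squamous differentiation and of the cell surface were near the median gene. KRT6A, DMKN and CALD1 held the shared deposited value in both columns, and why genes share it is not stated. In column 1 that value was also the median of the keratins, the differentiation genes, the squamous transcription factors and the serpins. The shared value of column 2 was the median of the junction genes in that column. Of 21 differentiation genes 0 were lower and 1, DEGS1, was higher (median 0.09). Of 9 keratins KRT5 was the only one called (median 0.09), and KRT14, the partner of KRT5 in basal cells, stood at 0.01 and 0.05. Over all genes 11.3% were lower and 2.14% higher. None of 13 junction genes (median 0.11), 18 matrix, protease and inhibitor genes (median 0.12) and 17 invasive front markers (median 0.04) passed in either direction. VIM (0.42 and 0.44, adjusted p = 0.0775) and PDPN (0.68 and 0.30, adjusted p = 0.109) had the highest means of the last list. Of 10 integrins and adaptors none passed, and 8 lay below the median gene by their mean. The beta-1 subunit ITGB1 stood at -0.86 and -0.30 (limma adjusted p = 0.114) and the integrin activator FERMT1 at -0.17 and -0.25 (adjusted p = 0.298). ITGB4 stood at -0.23 and -0.46 and ITGA3 at -0.16 and -0.51. With the values as deposited, 8 of the 10 passed below, against 41.6% of all genes. ITGB1 then had a mean of -0.94 and FERMT1 of -0.57 (limma adjusted p = 0.0114 and 0.0148). Across the 327 genes, 123 were in no list, and 7 of these were lower: RPSA, KLF16, IFITM3, PTMA, TFDP1, RANBP1 and E2F4. KLF16, a zinc-finger transcription factor, stood at -0.82 and -1.08, and IFITM3, an interferon-induced membrane protein, at -0.87 and -0.93.

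A comparison with the CAL27 cultures asked which losses A431 had in common with a second squamous line. In CAL27 culture 61 genes (18.7%) were lower, and 29 of the 37 lower genes of A431 culture were among them, which is 78.4% of the A431 genes and 47.5% of the CAL27 genes. By their mean, 35 of the 37 lay below the median gene in CAL27. GNB2L1 stood at -1.44 in both lines, FEN1 at -1.73 in A431 and -1.67 in CAL27, and CFL1 at -1.51 and -1.48. The 8 genes called lower in A431 culture and not in CAL27 culture were CDC20, E2F4, EGFR, EZH2, IFITM3, RANBP1, RRM2 and TFDP1. Of the 7 higher genes ANXA5 and KRT5 were also higher in CAL27 (28.6% of 7 and 12.5% of the 16 higher in CAL27), and all 7 lay above its median gene by their mean. Centring puts many genes on either side of the median gene by construction, and the share of all genes on the same side in both lines was not counted.

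Tested directly, 10 genes differed between the lines (limma, contrast of A431 minus CAL27 culture, centred columns). EZH2 alone (0.306%) was more negative in A431, by -2.38 log units (SE 0.18, 95% interval -2.83 to -1.94, adjusted p = 0.00348), with CAL27 columns at -0.13 and -0.16. The columns of the 2 lines did not overlap, but EZH2 was picked as the most negative difference. How many of the 327 genes were apart in this way was not counted. Of the other 7 genes called in A431 only, none differed past the threshold. TFDP1 differed by -0.75 (adjusted p = 0.0869), E2F4 by -0.58 (adjusted p = 0.0668), CDC20 by -0.75 (adjusted p = 0.137), and EGFR by -0.40 with an interval of -0.93 to 0.14 (adjusted p = 0.332), its CAL27 columns lying at -0.54 and -1.17. REST, the fourth most negative difference, was at -0.69 (adjusted p = 0.051).

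The 9 genes (2.75%) more positive in A431 were each called lower in CAL27 culture. More genes were called lower in CAL27 culture, 61 against 37. As deposited, the median gene stood at -0.47 and -0.49 in CAL27 and at -0.37 and -0.36 in A431. Whether the 9 differences go beyond a weaker loss of guides in A431 as a whole was not tested. PCNA, at 0.25 and -0.03 in A431, stood at -1.10 and -1.15 in CAL27, a difference of 1.24 (SE 0.15, adjusted p = 0.0232). MYC differed by 1.15 (adjusted p = 0.0325), with CAL27 columns at -2.23 and -1.82, and was lower in both lines. RPS19 (0.83) was also lower in both. The transcription factor YY1 (0.94), MCM5 (0.91), PABPC1 (0.83), MYBL2 (0.80) and CLSPN (0.77) were not called in A431, nor was CKS2 (0.72), a CDK subunit that the naming rule did not take and that is given here after its value was seen. CKS2 had the tied value in A431 column 2. The tables were made separately, so these differences assume the same log base and guide summary in both. With either CAL27 column left out none of the 10 passed, with A431 column 1 left out EZH2 alone did, and with A431 column 2 left out none did.

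**Figure D4:**
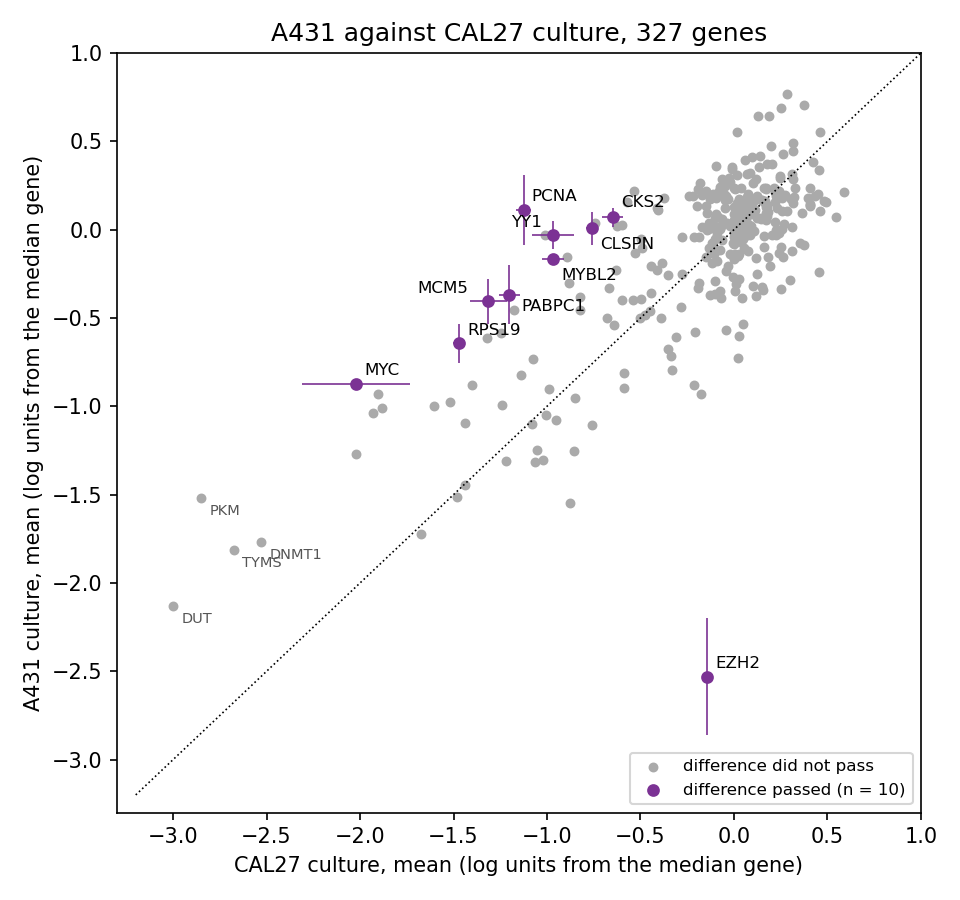
Mean change in CAL27 culture (x axis) and A431 culture (y axis) for 327 genes, in log units from the median gene of each table, with the line of equal values. Purple points are the 10 genes whose difference passed in limma, with bars of 1 SD over 2 columns, and EZH2 lies alone below the line at -0.15 in CAL27 and -2.53 in A431.

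A comparison with the A431 tumors asked which losses were common to culture and growth in mice. Its tables have separate initial samples. In tumors 39 genes (11.9%) were lower, 14 of them also in culture (37.8% of 37 and 35.9% of 39). Higher in tumors were 26 of all 327 genes, and DEGS1 was the only one also higher in culture (14.3% of 7 and 3.85% of 26). With numbers this small the overlap of higher genes is not read as a result. Called lower in A431 culture, CAL27 culture and A431 tumors were 11 genes: ARPC2, CCNB1, DNAJC9, DNMT1, FEN1, HSP90B1, PKM, TP63, TUBA1B, TYMS and UBE2S. By their mean over tumors 31 of the 37 lower genes and 5 of the 7 higher genes lay on the same side of the median gene as in culture. Centring puts many genes on either side by construction, and the share of all genes that kept their side was not counted. Tumors varied widely for some of these genes. TP63 ran from -5.75 to 0.23 over the 8 tumors around a median of -3.06.

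No gene passed the threshold between culture and tumors when limma fitted a common spread, although tumors varied more widely than cultures for some genes. The smallest adjusted p was 0.119, and 13 genes were more negative and 7 more positive in culture at an unadjusted p below 0.05. With an own spread for each setting 14 were more negative and 11 more positive after adjustment, so the absence of calls depends on the common spread. The adjusted p-values of single genes in this and the next paragraph come from the common spread. SMARCA4 had the most negative difference, -2.17 (SE 0.47, adjusted p = 0.119). Its cultures stood at -0.44 and -0.02 and its tumors ran from 0.87 through a median of 2.02 to 2.72, so the groups did not overlap. SLC2A1 differed by -1.67 (adjusted p = 0.187), with every tumor, from -0.82 to 0.88, above both cultures. EZH2 differed by -1.63 (adjusted p = 0.258), its tumors running from -2.19 through -0.87 to 0.12, all above both cultures. NOTCH3 differed by -1.58 (limma adjusted p = 0.258). These genes were picked as the most negative differences. How many of the 327 genes had tumors wholly above or below both cultures was not counted.

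At the other end PCNA was 2.04 higher in culture (adjusted p = 0.811), CD151, a tetraspanin that binds integrins, 1.99 (adjusted p = 0.889), TUBB 1.92 (adjusted p = 0.298) and MCM5 1.82 (adjusted p = 0.889). The 8 tumors of PCNA ran from -4.18 through -2.24 to 0.70 and overlapped the cultures. Those of CD151 ran from -8.22, with the next at -2.54, to 0.30. Those of MCM5 ran from -6.88, with the next at -3.74, to 0.13, so 1 low tumor weighs on the mean of each of these 2 genes. The tumors of TUBB ran from -3.70 to -0.75 and lay below both cultures. ITGB1 differed by 1.68 and FERMT1 by 1.78, neither past the threshold (adjusted p = 0.298 and 0.243). The tumors of FERMT1 ran from -3.11 to -0.67 and lay below both cultures, and those of ITGB1 ran from -3.51 to -0.78 and overlapped the lower culture. How many genes have tumors and cultures apart as in FERMT1 was not counted, so this is not a trait particular to it. EGFR differed by 0.51 (adjusted p = 0.985). Tumors grew longer than cultures and in mice, and time and setting cannot be told apart.

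**Figure D5:**
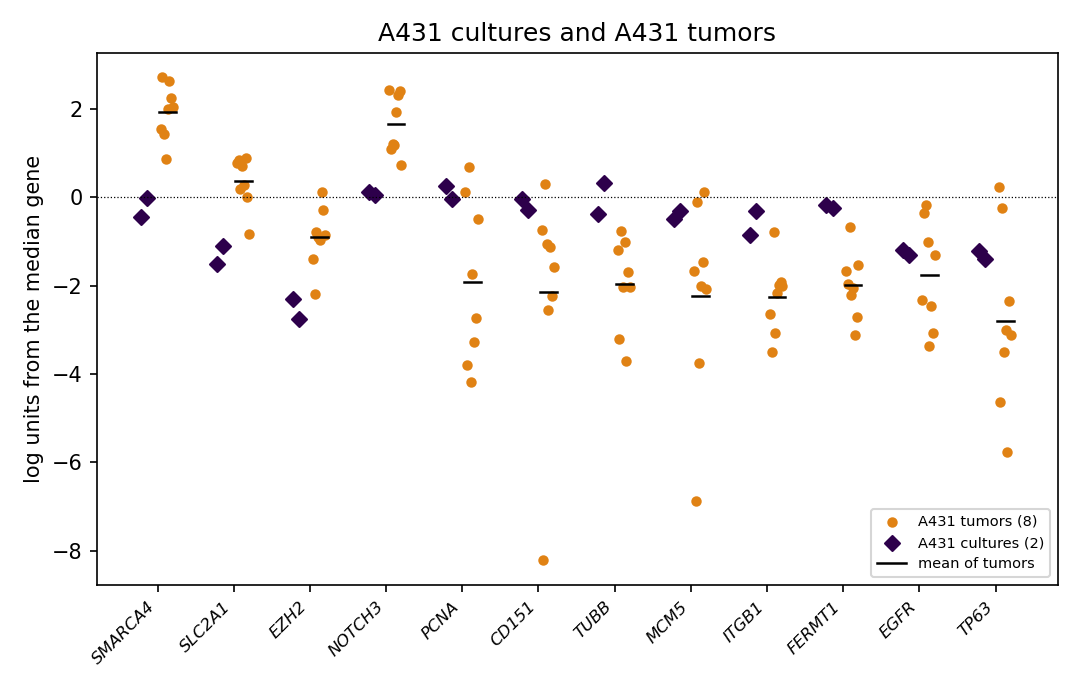
Change in log units from the median gene in the 2 A431 cultures (diamonds) and the 8 A431 tumors (circles, bar at their mean) for 12 genes. All 8 tumors of SMARCA4, SLC2A1, EZH2 and NOTCH3, picked as the most negative differences, lie above both cultures. Those of TUBB and FERMT1 lie below both, and CD151 has 1 tumor at -8.22. How many other genes separate in this way was not counted.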

How the data were processed

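Per the labels' protocols, guides were amplified from genomic DNA by PCR and sequenced on a MiSeq. Reads went through Bowtie2, per the submitters' processing notes, which name no version. The tables that the authors deposited hold a log fold change for each of 327 genes and for the non-targeting guides. The values were read as log2 for the checks of the deposited units only, since no label or header gives the base, the pseudocount or the way guides were combined per gene. With no counts, depth is unknown.

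Each column was centred on its median over genes, with the deposited values as an alternative. Fits used limma 3.58.1 in R 4.3.3 (lmFit, eBayes) over all 327 genes with Benjamini-Hochberg adjustment at 0.05, of the A431 culture against 0, of A431 minus CAL27 culture and of A431 culture minus tumors, and were tested on simulated data. The initial samples are the reference of every column, so their own error is in no test. Columns carry no replicate numbers. The genes named were the 15 lowest and up to 10 highest called, the 8 most extreme called differences in each direction (4 where fewer than 4 passed), the 5 genes whose columns differ most, and the lowest, highest and most significant member of each list. Other members are named for comparison within their group and were chosen after their values were seen. The members and lists were chosen with earlier results of these data known. Coding sequence was found for 324 genes.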

Additional observations from a re-analysis of the deposited data

Results flagged for a closer look

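EZH2 differed between the cultures of the 2 lines by -2.38 log units (A431 minus CAL27, adjusted p = 0.00348 in limma). Differences in the opposite direction passed the same test for PCNA (1.24), MYC (1.15), YY1 (0.94), MCM5 (0.91), PABPC1 (0.83), RPS19 (0.83), MYBL2 (0.80), CLSPN (0.77) and CKS2 (0.72), with adjusted p from 0.0232 to 0.0403. In the A431 tumors, 1 of 8 values of CD151 lay at -8.22, far from the next at -2.54, by Dixon's criterion for single outlying values. Of 8 genes checked this way it was the 1 found, and chance alone picks out about 1 in 20 groups. Other genes were not checked. DUT, for example, had 1 tumor at -6.29, with the next at -1.66.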

How the results depend on the processing

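The count of 37 lower and 7 higher genes of A431 culture was 136 and 1 relative to the non-targeting guides, 25 and 2 with trimmed mean centring, 57 and 10 with columns scaled to a common spread, 38 and 7 with a robust prior, 27 and 11 with a trended prior, 62 and 18 in a joint fit with CAL27 culture, 29 and 1 against a change of 0.2, and 0 and 0 at an adjusted p of 0.01. The trended prior kept 27 of the 37, the deposited values and the joint fit all 37, and leaving out 1 column 21 or 19. Without 1 A431 column the counts ranged from 23 to 26 lower and from 0 to 3 higher. The A431 minus CAL27 counts of 1 negative and 9 positive were 1 and 21 relative to the non-targeting guides, 1 and 1 with scaled columns, 2 and 14 with a robust prior and 2 and 2 with a trended prior, and with 1 column of either line left out they ranged from 0 to 1 negative and were 0 positive. The culture minus tumor counts of 0 and 0 became 14 and 11 with an own spread per setting and 1 and 0 with scaled columns, and with 1 column left out they ranged from 0 to 1 negative (1 without tumor value column 4) and were 0 positive. No called gene and no difference between tables changed direction, but 20 named genes that had not passed and 5 list medians near 0 changed sign under at least 1 setting. As deposited, PCNA stood at -0.25, CLSPN -0.36, NOTCH3 -0.28, HDAC1 -0.29, HMGB2 -0.26, CCNB2 -0.27, KIF20B -0.12, STMN1 -0.19, ARPC1B -0.078, CAV1 -0.22, PTHLH -0.052, ATF3 -0.0040, ETS2 -0.18, DSG3 -0.17, PKP1 -0.14, LGALS7B -0.24 and CXCL14 -0.14. With 1 column left out, values ranged from -0.026 to 0.25 for PCNA, from -0.084 to 0.025 for YY1, from -0.061 to 0.074 for CLSPN, from -0.38 to 0.33 for TUBB, from -0.99 to 0.22 for SH3PXD2A, from -0.16 to 0.31 for HDAC1, from -0.059 to 0.24 for CCNB2 and from -0.021 to 0.27 for LGALS7B. With 1 culture left out, the lone column was assumed to vary like the CAL27 cultures or the tumors. No paired analysis was possible because the value columns carry no replicate numbers and already hold differences from the initial samples. Depth limits could not be set, since no counts are given.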

Other observations

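The genes named here were chosen after their values were seen, and no group is implied. RANBP1, a Ran-binding protein, was lower at -0.63 and -0.58 (limma adjusted p = 0.0348). The importin KPNA2, of the spindle and chromosome structure list, stood at -0.51 and -1.07 without passing (adjusted p = 0.062). The chromatin-associated acidic protein PTMA was lower at -0.92 and -0.54 (adjusted p = 0.0448). TRIM28, a corepressor of zinc-finger proteins, stood at -0.51 and -1.25 (adjusted p = 0.0775) and the kinetochore protein ZWINT at -0.49 and -0.94 (adjusted p = 0.0594). MAX, the obligate partner of MYC, stood at -0.51 and -0.28 (adjusted p = 0.114), while MYC itself was lower at -0.88 and -0.86. The amino acid transporter SLC7A5 stood at -0.45 and -0.55 (adjusted p = 0.058), and its heavy chain partner SLC3A2 at 0.13 and -0.50 (adjusted p = 0.545). POLR2A, the largest subunit of RNA polymerase II and required in every cell, stood at 0.25 and 0.06 (adjusted p = 0.425), level with or above the median gene, against -0.44 and -0.70 in CAL27 culture.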
